A study of Mus musculus with 24 samples.

Results

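Muscle stem cells of the L2A-Pax7CreER genotype (KO) were compared with L2A-WT cells (WT) 4 days after injury of the muscle, with 4 RNA-seq libraries in each group out of 24 in the series. Both groups came from muscle into which 50 µL of cardiotoxin at 10 µM, a snake venom toxin that kills muscle fibres, had been injected, and both carry the cell type label muscle stem cells and the batch label 1. Pax7CreER is a Cre recombinase under the promoter of Pax7, the transcription factor that marks muscle stem cells, fused to an oestrogen receptor domain that makes it work only after induction. Here it removes Lamp2a in cells that express Pax7. Only the KO titles name the Cre, so loss of Lamp2a and presence of the Cre cannot be told apart. The age of the animals and the induction schedule are not given in the sources used here. The labels number the libraries 1 to 4 in each group without saying whether each came from a separate animal, so the p-values below measure only the spread between these libraries. The genes compared were those with a normalised read count of at least 1 in at least 4 of the 8 libraries, which held for 14831 of 17111 genes in the table. The other 2280 were not tested.

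Chaperone-mediated autophagy is a selective route into the lysosome. The chaperone HSC70, encoded by Hspa8, binds a short motif in a cytosolic protein and delivers it to LAMP2A on the lysosomal membrane, where the protein is unfolded and pulled inside. LAMP2A is the receptor and the limiting component of this route. Muscle stem cells rest beneath the sheath of the muscle fibre, are woken by injury, divide as myoblasts, and by a few days after cardiotoxin injury some of them leave the cell cycle, fuse and build new fibres. Energy metabolism and the handling of oxidised and misfolded proteins both change along that path.

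The total read count recovered per library was 14.05 to 17.38 M in KO and 11.99 to 14.08 M in WT. Reads outside the mitochondrial genome came to 7.94 to 9.87 M in KO and 8.22 to 9.97 M in WT. These include reads at Gm28437 and Gm29216, nuclear copies of mitochondrial genes. The copies took 9.94 to 10.998% of all reads in KO and 5.78 to 6.98% in WT. Pax7, the marker of muscle stem cells, was present in both groups, at 62.2 to 106 normalised reads in KO and 64.4 to 79.7 in WT. Markers of other cell types were present as well and are described below, so Pax7 alone does not show how pure the samples were. A KO library held reads for 15508 to 16174 genes, against 16414 to 16547 in a WT library. The spread between replicates was wider in KO, with a median SD over genes of 0.50 on the log2 scale, against 0.31 in WT. Pearson's r between pairs of libraries was 0.86 to 0.89 within KO, 0.88 to 0.92 between KO and WT, and 0.94 to 0.95 within WT, as a description with no test.

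At day 4, 152 of the 14831 genes passed the test, 92 of them higher and 60 lower in KO. This was 1.02% of the genes tested, 0.62% higher and 0.405% lower, with limma on log2(value + 1) and a Benjamini-Hochberg adjusted p under 0.05. At an unadjusted p under 0.05 there were 1877 genes. The median log2 difference over all genes tested was −0.03, and the 4 KO values lay wholly above or below the 4 WT values in 1211 genes, or 8.17%. When the values were rescaled to the reads outside the mitochondrial genome, that median became −0.23 and the split turned to 69 genes higher and 245 lower. Here and below, this rescaling kept the nuclear copies Gm28437 and Gm29216, whose share was larger in KO, among the reads scaled to. How much of the shift comes from their reads was not tested. Without WT replicate 2, 3 or 4 the higher calls came to 60, 55 and 55, and without WT replicate 1, 2, 3 or 4 the lower calls came to 24, 19, 23 and 19. The test edgeR on the recovered counts called 71 higher and 35 lower, and DESeq2 called 216 and 177. On simulated data DESeq2 called unchanged genes more often than its threshold allows, and more often than limma or edgeR on the same libraries.

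**Figure D1:**
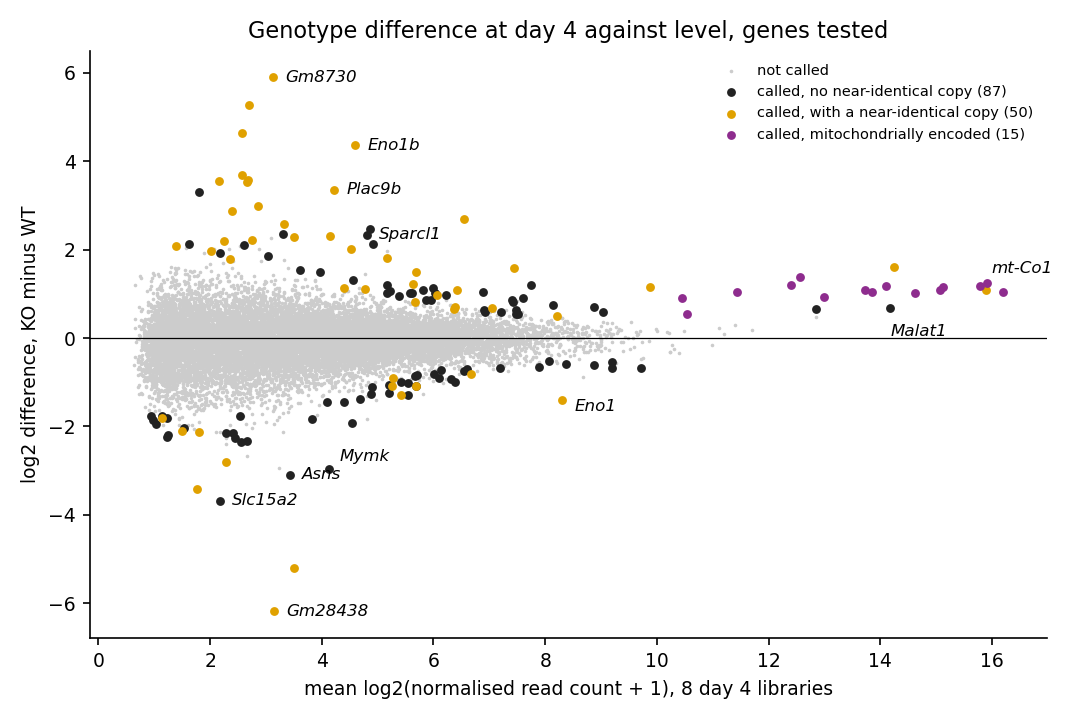
Each point is a gene tested at day 4, with its mean log2(normalised read count + 1) over the 8 libraries on the x axis and the log2 difference, KO minus WT, on the y axis; black, orange and purple points are the 152 called genes without a near-identical copy, with one, and encoded in the mitochondrial genome. The 15 purple points all lie above 0, and Gm8730 and Gm28438 mark the largest differences, both in genes with a near-identical copy.

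The deletion could not be read from the level of the whole gene. Lamp2, on chromosome X, had 154, 249, 266 and 217 normalised reads in KO libraries, against 197, 226, 200 and 211 in WT libraries. The groups overlapped, with 222 ± 49.3 in KO and 209 ± 13.1 in WT (SD, n = 4 each), and the log2 difference was 0.06 ± 0.15 (SE, limma adjusted p = 0.913). The table counts a whole gene, and Lamp2 makes 3 coding transcripts that share their first 1109 coding bases and differ in the last exon, so the gene's total does not separate the A form from the others. The last 36 coding bases before the stop codon are printed here because they are where the A form, the receptor of chaperone-mediated autophagy, parts from the others (GENCODE annotation of GRCm38, minus strand of chromosome X); the gene-level values cannot be split between them.
Lamp2-201, the A form: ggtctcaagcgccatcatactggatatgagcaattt
Lamp2-202: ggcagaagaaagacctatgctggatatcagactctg
Lamp2-203: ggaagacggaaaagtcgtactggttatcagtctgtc
Hspa8, the chaperone that brings substrates to the receptor, had 834 ± 104 in KO and 783 ± 45.6 in WT (SD, n = 4 each; log2 difference 0.08, limma adjusted p = 0.774). None of the 21 chaperone-mediated autophagy genes tested, of 22 listed, passed in limma, edgeR or DESeq2, their median log2 difference was 0.08, and 4 had an unadjusted limma p under 0.05; rescaled to reads outside the mitochondrial genome, 1 was called lower.

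Transcripts of the mitochondrial genome were the most uniform difference at day 4. These 13 genes encode core subunits of the respiratory chain and of ATP synthase, and all 13 were higher in KO under the main normalisation, with a median log2 difference of 1.08. edgeR and DESeq2 also called all 13, and rescaled to the reads outside the mitochondrial genome all 13 stayed positive and 12 called, with a median of 0.86. Quantile normalisation, which gives the genes of highest rank the same values in every library by construction, leaves little to test in these genes: 2 of the 13 were called, and mt-Nd1 (−0.06), mt-Nd4 (−0.05) and mt-Cytb (−0.02) came out just below 0. The 13 genes took 33.2% ± 0.56 of all reads in KO libraries and 22.01% ± 1.07 in WT libraries (SD, n = 4 each). The ranges were 32.7 to 34.0% and 20.5 to 22.95% and did not overlap. The difference was 11.2 percentage points, and 10.6 to 11.5 points with any 1 library left out. In bulk samples such as these, fewer cells of a type and less RNA per cell cannot be told apart, and a share is relative to the rest of the library.

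Single genes showed the same separation. mt-Co1, a catalytic subunit of complex IV, had 108855, 90632, 90671 and 90940 normalised reads in KO libraries and 41470, 44245, 34484 and 39728 in WT libraries. Every KO library was above every WT library (log2 difference 1.25 ± 0.10 SE, limma adjusted p = 1.18e-05). mt-Co3, another subunit of complex IV, had 9334, 9705, 10566 and 9499 in KO, against 3892, 4608, 2824 and 3984 in WT. Its difference was 1.37 ± 0.12 (limma adjusted p = 3.34e-05). With the spread of all 24 libraries the same difference was not called (limma adjusted p = 0.0843). Summed with its nuclear copy, mt-Co3 was higher by 1.12. mt-Atp8 and mt-Atp6, the ATP synthase subunits encoded by overlapping reading frames, were higher by 1.20 and 1.17, mt-Co2 of complex IV by 1.16 and mt-Cytb of complex III by 1.08. The complex I subunits mt-Nd1, mt-Nd2, mt-Nd4, mt-Nd4l, mt-Nd5 and mt-Nd6 were higher by 1.03, 0.94, 1.04, 0.91, 1.08 and 1.04. The smallest difference was in mt-Nd3, a complex I subunit, with 2136, 1573, 1833 and 1707 in KO and 1356, 1324, 1103 and 1143 in WT (0.55 ± 0.11, limma adjusted p = 0.0255). That call was lost without WT replicate 2, 3 or 4 or KO replicate 3, with adjusted p of 0.0521 to 0.113, and after rescaling to reads outside the mitochondrial genome (0.34, 0.0697). The ribosomal RNAs mt-Rnr2 and mt-Rnr1 were also called, at 1.04 and 1.18, so that all 15 genes tested on the mitochondrial chromosome were higher. Ribosomal RNA of the mitochondrion took 10.2 to 13.9% of reads in KO and 6.798 to 8.72% in WT.

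**Figure D2:**
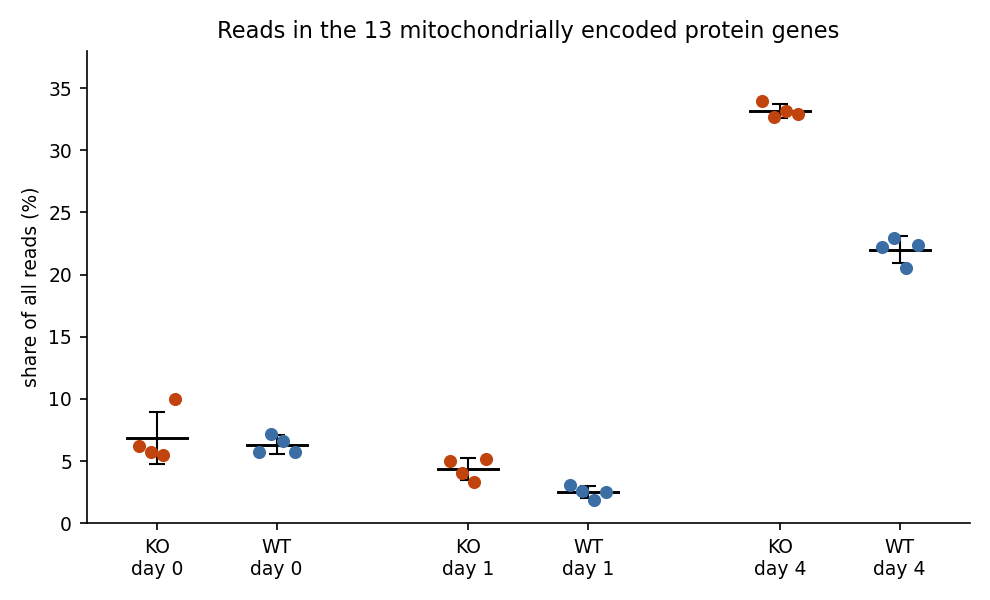
Share of all reads in percent that fell in the 13 mitochondrially encoded protein genes, 1 point per library, with the mean (bar) and SD (whiskers) of 4 libraries, for KO and WT at day 0 (uninjured), day 1 and day 4. At day 4 the KO libraries sit at 32.7 to 34.0% and the WT libraries at 20.5 to 22.95%, while at days 0 and 1 no library exceeds 9.98%.

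Nuclear genes of the same respiratory complexes did not share that direction. Of 58 nuclear oxidative phosphorylation genes tested, none was higher and 4 were lower, with a median log2 difference of −0.21 beside −0.03 over all genes. Their summed level was 5977 to 7295 in KO and 7663 to 8627 in WT, without overlap. Atp5b, the catalytic subunit of ATP synthase, fell to 438, 493, 393 and 530 in KO, against 690, 677, 783 and 804 in WT. No KO library reached the lowest WT library (−0.68 ± 0.11 SE, limma adjusted p = 0.00733). Without the mean-variance trend Atp5b was not called (limma adjusted p = 0.205). The others were Uqcrc1 of complex III (116 against 184 in WT, −0.67, limma adjusted p = 0.0279), Cyc1, the cytochrome c1 of complex III (72.0 against 120 in WT, −0.75, 0.0464), and Cox6a1 of complex IV (224 against 318 in WT, −0.52, 0.0482). The calls of Uqcrc1 and Cyc1 were each lost without any 1 of the 4 WT libraries and without KO replicates 2 and 4 (Uqcrc1, adjusted p of 0.0594 to 0.128) or 1 and 3 (Cyc1, 0.0842 to 0.19).

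Among 23 tricarboxylic acid cycle genes 2 were lower and none higher, with a median of −0.24. They were Suclg1, a succinyl-CoA ligase subunit (37.0 ± 4.56 in KO and 68.0 ± 10.6 in WT, −0.86, limma adjusted p = 0.032), and Idh3g, an isocitrate dehydrogenase subunit (60.6 ± 17.9 in KO and 117 ± 11.7 in WT, −0.996, 0.0427), and both calls were lost without any 1 of the 4 WT libraries or KO replicate 3, and that of Idh3g also without KO replicate 2 (adjusted p of 0.0605 to 0.14 for Suclg1 and 0.053 to 0.153 for Idh3g). None of 19 fatty acid oxidation genes was called by limma, edgeR or DESeq2 (median −0.15, 2 at an unadjusted limma p under 0.05). Tufm, the elongation factor of mitochondrial translation and a gene chosen after its values were seen, fell to 44.6, 29.4, 27.6 and 27.5 in KO, against 63.6, 71.8, 65.8 and 60.8 in WT (−1.03 ± 0.19, limma adjusted p = 0.0175). Of 22 glycolysis genes, 1 was higher and 2 were lower, with a median of −0.25. The lower genes were the enolases Eno1, the form found in most tissues, and Eno3, the muscle form, which turn 2-phosphoglycerate into phosphoenolpyruvate. Eno1 had 207, 234, 150 and 188 in KO libraries and 442, 469, 513 and 646 in WT libraries (−1.41 ± 0.15, limma adjusted p = 0.000148). Eno3 averaged 58.3 ± 19.2 in KO and 109 ± 12.97 in WT (−0.93, 0.0446), a call lost without any 1 of the WT libraries or of KO replicates 1 to 3 (adjusted p of 0.0732 to 0.17). The higher gene, Eno1b, is a near-identical copy of Eno1 and is described with the copies.

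Targets of ATF4 held some of the larger negative differences of day 4. ATF4 is the transcription factor of the integrated stress response; with its partners it binds a composite element in its target genes, which serve amino acid supply and stress signalling. Of 23 ATF4 target genes tested, none was higher and 3 were lower, and the median was −0.38 with 8 positive. The summed level was 869 to 987 in KO and 1061 to 1249 in WT, without overlap. The promoters of the 3 lower genes are shown from 250 bases before to 50 after the annotated start, with the element TGATGNAA, or its reverse complement, in capitals (RefSeq sequences on GRCm38.p6).
Asns, chr6:7693160-7693459, minus strand: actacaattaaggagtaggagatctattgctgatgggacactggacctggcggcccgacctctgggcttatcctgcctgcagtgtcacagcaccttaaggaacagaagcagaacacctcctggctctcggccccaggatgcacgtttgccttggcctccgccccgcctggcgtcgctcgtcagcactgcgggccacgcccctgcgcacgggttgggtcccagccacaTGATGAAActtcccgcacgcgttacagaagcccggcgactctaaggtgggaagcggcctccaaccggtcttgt
Trib3, chr2:152344011-152344310, minus strand: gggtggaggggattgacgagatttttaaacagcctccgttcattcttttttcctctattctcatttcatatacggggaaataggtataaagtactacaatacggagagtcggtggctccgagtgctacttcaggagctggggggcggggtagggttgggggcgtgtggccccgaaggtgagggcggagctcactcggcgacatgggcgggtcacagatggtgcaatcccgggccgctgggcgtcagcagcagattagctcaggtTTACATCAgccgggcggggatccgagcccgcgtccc
Ddit3, chr10:127290543-127290842, plus strand: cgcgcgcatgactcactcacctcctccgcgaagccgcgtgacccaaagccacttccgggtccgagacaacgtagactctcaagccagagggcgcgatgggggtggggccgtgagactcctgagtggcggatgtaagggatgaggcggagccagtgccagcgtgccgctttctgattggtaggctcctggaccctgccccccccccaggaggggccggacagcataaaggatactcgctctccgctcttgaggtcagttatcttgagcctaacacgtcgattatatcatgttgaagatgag
The element was found once in Asns, once in reverse in Trib3 and not in these letters in Ddit3. It occurs, on either strand, in 3.97% of the 32851 promoters of that length in the table, in 2.84% of 10241 tested genes with a promoter there, and in 9 of the 22 list genes matched (40.9%). Of these list genes, Atf3, Chac1, Slc7a11, Fgf21, Nupr1, Vldlr and Pck2 carry it and were not called. Whether the element has a part in the lower values was not tested.

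Asns, asparagine synthetase, had 5.30, 3.08, 1.26 and 2.11 normalised reads in KO libraries, against 29.2, 26.0, 32.3 and 34.3 in WT libraries. The highest KO library was far below the lowest WT library, and 154 recovered reads in KO stood against 1944 in WT. Asns fell by 3.09 on the log2 scale (SE 0.36, limma adjusted p = 0.000364) and stayed called in all 21 alternatives. Trib3, a pseudokinase induced by ATF4, had 0.903, 0.616, 0.171 and 0.162 in KO and 3.07, 4.69, 4.57 and 8.42 in WT. The groups did not overlap, and the KO values lay near the level of 3 reads, which is 0.227 to 0.288 in these libraries (−2.05 ± 0.40, limma adjusted p = 0.0275). Ddit3, the transcription factor CHOP, had 19.8, 26.7, 23.6 and 29.7 in KO and 51.5, 57.6, 49.4 and 50.6 in WT, again without overlap (−1.05 ± 0.18, limma adjusted p = 0.0128). Trib3 lost its call without WT replicates 2, 3 or 4 or KO replicates 3 or 4 (adjusted p of 0.0618 to 0.118), and Ddit3 without any 1 WT library (0.0524 to 0.074). Ddit3 overlaps Mars, and whether reads were counted by strand is not given in the sources used here. Among 22 endoplasmic reticulum stress genes, Ddit3 was the only one called, and the median was −0.27.

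**Figure D3:**
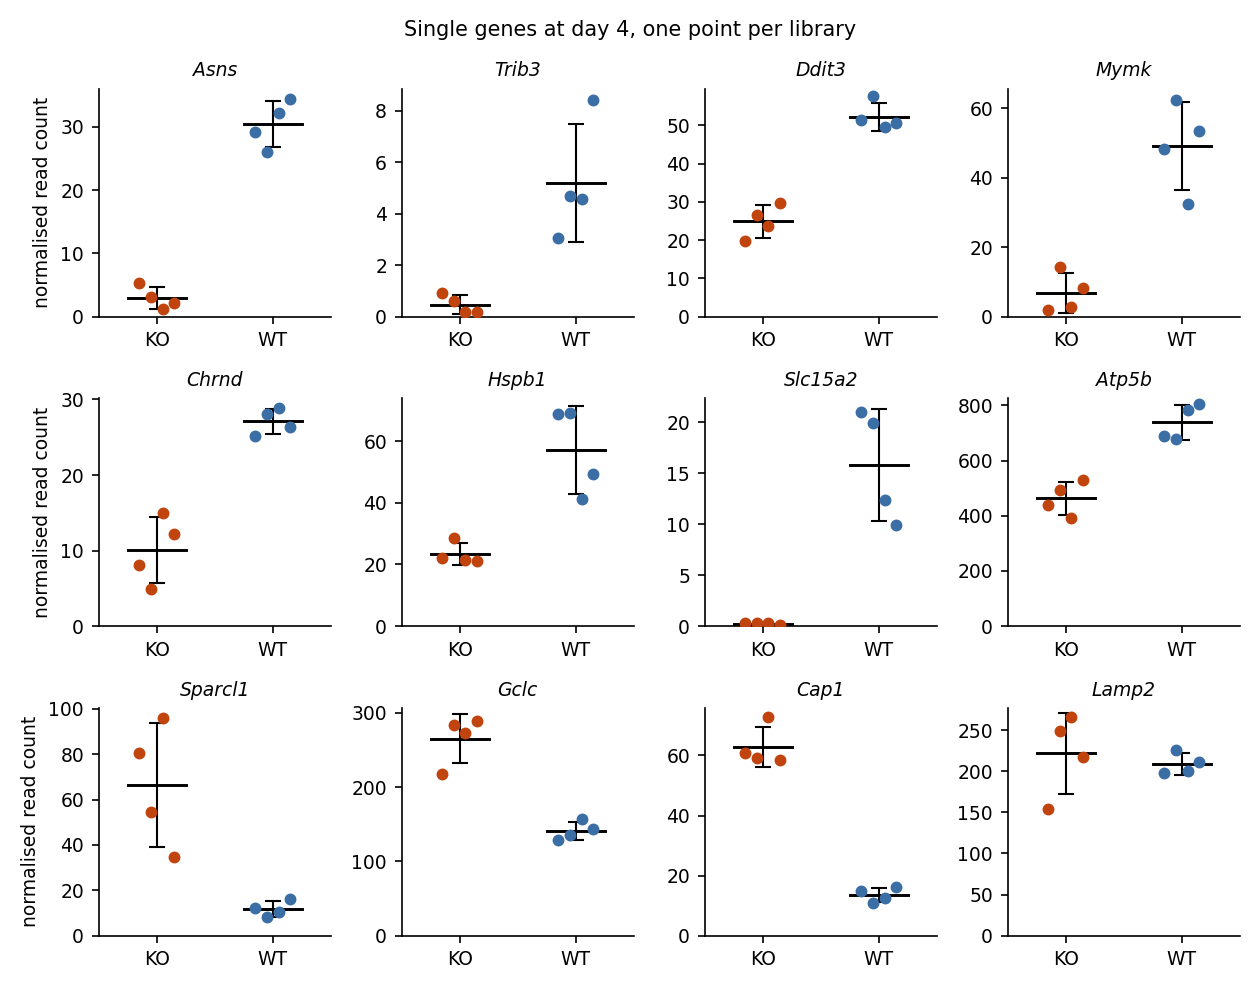
Normalised read count per library of 12 genes at day 4, KO beside WT, with the mean (bar) and SD (whiskers) of 4 libraries and a y axis from 0 for each gene. KO and WT points are separate for 11 of the genes, with Asns at 1.26 to 5.30 in KO and 26.0 to 34.3 in WT, and they overlap for Lamp2.

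Genes of differentiation and fusion were mostly at lower values in KO. Of 29 tested, of 32 listed, 2 were lower and none higher, only 3 had a positive difference, and the median was −0.57. Their summed level was 1395 to 1920 in KO and 2025 to 2505 in WT, without overlap. Mymk (myomaker), the membrane protein that myoblasts need to fuse, had 1.85, 14.4, 2.90 and 8.34 in KO libraries and 48.2, 62.5, 32.6 and 53.7 in WT libraries. KO values varied several-fold among themselves, yet the highest was below the lowest WT value (−2.95 ± 0.46 SE, limma adjusted p = 0.00588), and no omission of a library ended the call. The call was lost with the spread of all 24 libraries (limma adjusted p = 0.239) and without the mean-variance trend (0.0502). Chrnd, a subunit of the acetylcholine receptor of the neuromuscular junction, had 8.13, 4.97, 14.9 and 12.2 in KO and 25.2, 28.03, 28.9 and 26.3 in WT (−1.44 ± 0.31, limma adjusted p = 0.0477). That call was lost without any 1 WT library or KO replicate 1 or 2, with adjusted p of 0.0608 to 0.167.

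Of the factors that set myogenic identity and the stage markers named here, none passed the test in all 8 libraries with limma. Myog (myogenin), which drives terminal differentiation, averaged 17.8 ± 10.3 in KO and 22.6 ± 5.88 in WT (log2 difference −0.43, limma adjusted p = 0.655). Myod1, the determination factor, averaged 50.1 ± 13.2 and 39.0 ± 14.8 in KO and WT (0.39, limma adjusted p = 0.602). Pax7 itself averaged 85.5 ± 19.9 in KO and 71.3 ± 6.51 in WT (0.23, limma adjusted p = 0.626). Myf5, the early determination factor, had 21.2 to 24.1 in KO and 27.7 to 36.6 in WT, which do not overlap, but missed the threshold (−0.43, limma adjusted p = 0.387). Myh3, the embryonic myosin heavy chain of newly formed fibres, had 23.1, 6.78, 4.00 and 2.11 in KO and 30.4, 19.7, 14.97 and 15.7 in WT. Only KO replicate 1 lay within the WT range, and without it Myh3 was called (−2.05, limma adjusted p = 0.0288), against −1.47 and 0.252 with all libraries. Calcr, the calcitonin receptor of quiescent stem cells, averaged 0.867 in KO and 6.24 in WT and was not called (−1.72, limma adjusted p = 0.187). It passed with DESeq2 (−2.90, DESeq2 adjusted p = 0.0186) and with the spread of all 24 libraries (limma adjusted p = 0.0135). On simulated data both of these fits called unchanged genes more often than their threshold allows.

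Of 17 myogenic transcription factors, 1 was called. Id2, an inhibitor of the bHLH factors that include Myod1, rose to 190, 209, 251 and 235 in KO, against 165, 133, 123 and 149 in WT (0.64 ± 0.13, limma adjusted p = 0.0343). The list's median was 0.03 and its summed level 1189 to 1339 in KO and 1098 to 1158 in WT, and the Id2 call was lost in 6 of the 8 omissions of a library (WT replicates 2, 3 and 4, KO replicates 2, 3 and 4, adjusted p of 0.0505 to 0.133). It was also lost with edgeR (0.0625) and after rescaling to reads outside the mitochondrial genome (0.42, limma adjusted p = 0.118), where the list's median was −0.19 beside −0.23 over all genes. Of 24 surface and quiescence markers of muscle stem cells, 1 was higher and none lower, with a median of 0.25. This was Gpx3, a secreted glutathione peroxidase, with 597, 629, 639 and 718 in KO and 423, 378, 460 and 457 in WT (0.59 ± 0.10, limma adjusted p = 0.00902). Rescaled, Gpx3 was not called (0.37, 0.0921), and the list had none higher, 1 lower and a median of 0.05.

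Genes of the dividing cell were at lower values as lists, with few single calls. Of 30 mitosis genes only 1 had a positive difference, the median was −0.67, and the summed level was 319 to 565 in KO and 581 to 703 in WT, without overlap. Prc1, which bundles microtubules in the dividing cell's midzone, was the single call, at 30.9 ± 13.01 in KO and 72.3 ± 11.2 in WT (−1.28, limma adjusted p = 0.036). Of 34 DNA replication genes only 2 had a positive difference, the median was −0.50, and the sums were 490 to 699 in KO and 751 to 922 in WT, again without overlap. Rrm2, the regulated subunit of ribonucleotide reductase, was called at 25.2 ± 3.13 in KO and 56.4 ± 17.7 in WT (−1.09, limma adjusted p = 0.0321). Each of these calls was lost in 6 of the 8 omissions of a library, with adjusted p of 0.0642 to 0.146 for Prc1 (all but KO replicates 1 and 4) and 0.0564 to 0.132 for Rrm2 (all but WT replicate 3 and KO replicate 4). Trip13, an ATPase that remodels the spindle checkpoint, fell to 1.88 ± 1.57 in KO, against 12.5 ± 3.06 in WT (−2.34, limma adjusted p = 0.0183; 0.0612 to 0.0921 without WT replicate 1, 3 or 4). Mki67, the proliferation marker Ki-67, averaged 42.4 ± 11.002 in KO and 59.6 ± 7.75 in WT and was not called (−0.51, 0.329). None of 19 G1 cyclins, kinases and inhibitors (median 0.05, 3 at an unadjusted p under 0.05) and none of 19 p53 targets (median 0.21, 6) passed in limma or edgeR, while DESeq2 called 2 of the p53 targets higher. Cdkn1a, the p21 inhibitor that p53 induces, had 279 to 302 in KO and 306 to 374 in WT without overlap, but was not called (−0.29, limma adjusted p = 0.22); it passed after rescaling to reads outside the mitochondrial genome (−0.51, 0.0245).

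Antioxidant genes leaned the other way. Of 24 targets of NRF2, the transcription factor of the response to oxidants, 21 had a positive difference, the median was 0.19, and 2 were higher. Rescaled to reads outside the mitochondrial genome, 10 of the 24 were positive, the median was −0.02 beside −0.23 over all genes, and 1 was called. Gclc, the catalytic subunit of the enzyme that starts glutathione synthesis, had 217, 283, 272 and 288 in KO libraries and 129, 136, 157 and 144 in WT libraries. Every KO library was above every WT library (0.90 ± 0.12 SE, limma adjusted p = 0.00155). Without the mean-variance trend Gclc was not called (limma adjusted p = 0.0973). Hmox1, the haem-degrading enzyme, had 411, 396, 410 and 259 in KO and 180, 205, 259 and 228 in WT. KO replicate 4 stood with the WT libraries (0.74 ± 0.16, limma adjusted p = 0.0429), and the call was lost in every omission but that of KO replicate 4 (0.0565 to 0.157) and after rescaling (0.53, 0.0951).

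Lists of protein quality control held few calls. Of 30 cytosolic chaperones, 1 was lower, with a median of −0.02. Hspb1, the small heat shock protein HSP27, had 22.1, 28.7, 21.4 and 20.99 in KO and 68.9, 69.1, 41.1 and 49.4 in WT (−1.24 ± 0.21, limma adjusted p = 0.0119; 0.0655 and 0.0714 without WT replicates 1 and 2). With limma none of 32 lysosomal genes passed (median −0.16, 7 at an unadjusted p under 0.05), with a summed level of 4444 to 5082 in KO and 5102 to 5630 in WT, without overlap. Their mean of log2(value + 1) did overlap, at 5.73 to 5.97 in KO and 5.92 to 6.12 in WT. None of 30 macroautophagy genes (median 0.09, 2 unadjusted) or 36 proteasome genes (median −0.16, 9 unadjusted) passed, and the proteasome sums were 3507 to 3977 in KO and 4146 to 4494 in WT. None of 78 cytosolic ribosomal protein genes passed either, although 66 had a positive difference and 22 an unadjusted p under 0.05, with a median of 0.14 that became −0.08 after rescaling. edgeR also called none in these 4 lists, while DESeq2 called 1 lysosomal gene higher, 1 macroautophagy gene lower, 3 proteasome genes lower and 3 ribosomal protein genes higher, and rescaling called 3, 1, 3 and 2 of them lower. Of 27 interferon response genes, 1 was lower (median −0.18): Bst2, the membrane tether of budding viruses, had 11.9 ± 2.15 in KO and 34.2 ± 5.94 in WT (−1.45, limma adjusted p = 0.00893; 0.0556 and 0.0603 without WT replicates 2 and 4). Of 24 sterol synthesis genes 1 was lower (median −0.25), Nsdhl, at 1.75 ± 1.31 in KO and 11.9 ± 6.38 in WT (−2.26, 0.0477; 0.0832 to 0.197 without any 1 WT library or KO replicate 3 or 4). limma and edgeR called no member in the lists of ribosome biogenesis (32 tested, median 0.02, 3 at an unadjusted limma p under 0.05), immediate early genes (27, 0.16, 3), chemokines and cytokines (25, 0.04, 2), the Notch pathway (14, −0.05, 1), the TGF-beta pathway (25, 0.16, 6) and growth factor receptors (18, 0.03, 3). DESeq2 called 1 chemokine or cytokine gene lower and 1 gene each of the TGF-beta and receptor lists higher, and rescaling called 1 immediate early gene, 1 chemokine or cytokine gene and 1 receptor lower. Of the 31 lists that are not markers of other cell types, 17 held at least 1 member called by limma. These lists held 13 to 78 tested genes and were chosen with earlier results known. With 1.02% called over all genes, a list of that size can hold 1 call without standing out. Ddit3 counts in both the ATF4 and the endoplasmic reticulum stress list.

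Several single genes outside these pathways rose. Sparcl1, a secreted matricellular protein also known as hevin, had 80.5, 54.5, 96.0 and 34.8 normalised reads in KO and 12.3, 8.13, 10.4 and 16.2 in WT, and it was the only call among 42 extracellular matrix genes (median 0.06). The lowest KO library was above the highest WT library (2.34 ± 0.31 SE, limma adjusted p = 0.00132). Cap1, a cyclase-associated protein that recycles actin, had 60.9, 59.2, 72.7 and 58.4 in KO and 14.7, 10.9, 12.6 and 16.2 in WT (2.14 ± 0.20, limma adjusted p = 4.42e-05). It overlaps Ppt1. Mid1, a microtubule-associated ubiquitin ligase on chromosome X, averaged 45.7 ± 9.67 in KO and 11.01 ± 4.71 in WT (2.01 ± 0.29, limma adjusted p = 0.00297). Mid1 has 2 annotated near-identical copies and overlaps G530011O06Rik and Gm15726, so the locus of its reads is uncertain. Sparcl1, Cap1 and Mid1 were called in all 21 alternatives. Art3, Capn12 and Glcci1 rose by 2.35, 1.55 and 1.23 (limma adjusted p of 0.0406, 0.0216 and 0.0321), and each lost its call in 5 or 6 of the 8 omissions. The adjusted p was then 0.0816 to 0.14 for Art3 (without WT replicates 1 to 3, KO replicates 1 or 3), 0.0544 to 0.0851 for Capn12 (any 1 WT library, KO replicate 2) and 0.0632 to 0.119 for Glcci1 (WT replicates 2 to 4, KO replicates 1, 3 or 4). Art3 overlaps Cxcl10 and Capn12 overlaps Actn4, as Prc1 does Rccd1 and Erfe does Ilkap, so reads of each pair may not be told apart without strand. Malat1, an abundant nuclear noncoding RNA chosen after its values were seen, had 24492, 20950, 25155 and 23244 in KO and 16789, 14181, 14160 and 13640 in WT (0.68 ± 0.09, limma adjusted p = 0.00133).

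Slc15a2, the peptide transporter PEPT2, was nearly absent from KO libraries. It had 0.275, 0.288, 0.307 and 0.162 in KO, 12 recovered reads in all, and 20.99, 19.9, 12.4 and 9.91 in WT (−3.68 ± 0.39 SE, limma adjusted p = 0.000148). Sema3e, a secreted guidance signal, had 4.67, 7.77, 6.93 and 7.24 in KO and 28.5, 32.8, 25.4 and 18.9 in WT (−1.83 ± 0.29, limma adjusted p = 0.00641), and both genes were called in all 21 alternatives. H19, an imprinted noncoding RNA of the Igf2 locus that is abundant in differentiating muscle, averaged 18.2 ± 1.71 in KO and 45.3 ± 7.37 in WT (−1.26 ± 0.20, limma adjusted p = 0.00642), the only call among 15 imprinted genes (median 0.11). With the spread of all 24 libraries H19 was not called (limma adjusted p = 0.395). Il13ra1, an interleukin receptor subunit, averaged 12.5 ± 7.64 in KO and 44.6 ± 4.19 in WT (−1.92, limma adjusted p = 0.0144), and Erfe, erythroferrone, a secreted regulator of iron use, 1.98 ± 1.14 in KO and 14.1 ± 6.27 in WT (−2.32, 0.0183). St6gal1, Krt18, Tbc1d19 and Arfgap2 fell by 1.77, 2.15, 2.15 and 2.79. Each of these 6 genes lost its call in some omissions: Erfe without WT replicates 2 to 4 (adjusted p up to 0.0971), Il13ra1 without any 1 WT library (0.0666), St6gal1 also without KO replicates 2 or 3 (0.144), Krt18 also without KO replicates 1, 2 or 4 (0.145), Tbc1d19 also without KO replicates 1, 3 or 4 (0.174), and Arfgap2 without WT replicates 2 to 4 or KO replicates 1, 2 or 4 (0.148). Abundant genes chosen after their values were seen had smaller differences, Anxa2 at −0.67, Anxa1 at −0.61, Lmna at −0.58, Lgals3 at −0.54 and Tpm1 at −0.66, and Nrp1, a receptor for semaphorins and VEGF, was at −1.07 (34.9 ± 6.57 in KO and 73.6 ± 3.39 in WT).

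Many of the calls fell in genes with a near-identical copy elsewhere in the genome. A copy here is an annotated transcript at 95% identity or more over at least 200 bases and 50% of the shorter transcript. Such genes made 59 of the 152 calls (38.8%) and 10.7% of the genes tested, and pseudogenes made 18 calls (11.8%) and 2.84% of the genes tested. Reads from such genes can be assigned to either copy, so these calls are uncertain as to which locus they describe. Mid1, Glcci1, Arfgap2 and Rrm2, named above, have annotated copies and are among these calls. Families described below were chosen after their values were seen. Rplp0, the stalk protein of the large ribosomal subunit on chromosome 5, and 3 processed pseudogenes show how close the copies are; bases 137 to 196 of the Rplp0 coding sequence are printed with, in capitals, the positions at which any copy differs (in Rplp0) or the bases that differ from Rplp0 (in the copies), from GENCODE transcripts.
Rplp0: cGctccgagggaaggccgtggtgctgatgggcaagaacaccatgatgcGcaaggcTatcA
Gm8730, chromosome 8: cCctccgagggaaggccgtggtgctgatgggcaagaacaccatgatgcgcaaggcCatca
Gm9625, chromosome 13: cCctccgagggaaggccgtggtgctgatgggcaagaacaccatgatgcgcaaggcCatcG
Gm14165, chromosome 2: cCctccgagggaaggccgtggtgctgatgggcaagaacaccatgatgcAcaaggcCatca
Over the 951 coding bases Gm8730 differed from Rplp0 at 12 positions (98.7% identity) and Gm9625 at 24 (97.5%), and Gm14165 differed at 25 of 949 aligned bases (97.4%).

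Gm8730 had 58.2, 75.8, 69.4 and 62.3 normalised reads in KO libraries and 0.0345, 0.251, 0.0287 and 0.201 in WT libraries, which makes it the largest positive difference (5.90, limma adjusted p = 4.79e-07). Gm9625 averaged 39.5 in KO, had no read in WT and was at least 158-fold higher, with 3 reads per library as the floor. The 3 copies summed to 110 ± 12.5 in KO and 0.451 ± 0.302 in WT, while Rplp0 itself averaged 514 ± 51.7 in KO and 615 ± 24.5 in WT. The copies held 16.8 to 18.2% of the family's reads in KO and 0.0246 to 0.125% in WT. Summed over the family the difference was 0.02 ± 0.09 and was not called (limma adjusted p = 0.966).

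The other families behaved in several ways when their members were summed. Eno1b had 91.1, 116, 119 and 111 in KO and 5.07, 3.76, 3.25 and 5.60 in WT, and with Eno1 the family sum was lower in KO (−0.76 ± 0.13, limma adjusted p = 0.0102). The sums of Ndufs5 with its pseudogene (0.04, 0.954), Eef1a1 with its copies (0.11, 0.632), Rpl11 with its copies (−0.08, 0.841) and the pair of loci annotated as Sept2 (−0.03, 0.962) were not called by limma. The second Sept2 locus had 0.0393, 0.0411, 2.08 and 2.76 in KO and 45.1, 79.7, 67.6 and 87.3 in WT, with the balance in the main locus, at 125 ± 21.6 in KO and 58.2 ± 9.04 in WT. Calls that held after summing were Plac9a, Plac9b and Gm9780 on chromosome 14 (3.57, limma adjusted p = 3.16e-06) and the Tmem254 copies there (2.63, 0.00025). Plac9b, a small secreted protein, had 60.8, 66.6, 62.0 and 48.2 in KO and 5.89, 2.40, 6.18 and 5.95 in WT. Chromosome 14 held 9 of the 92 higher calls (9.78%) and 3.44% of the genes tested. These calls include Plac9a, Plac9b, Gm9780, Tmem254b, Tmem254c and Duxbl3, which all have near-identical copies, so members of 1 family are counted separately. Chromosome Y held 2 of the 92 higher calls (2.17%) with 10 genes tested (0.0674%).

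Nuclear copies of mitochondrial DNA on chromosome 1 took reads as well. Gm28437, a copy of mt-Co3, and Gm29216, a copy of mt-Co1, together took 9.94 to 10.998% of all reads in KO and 5.78 to 6.98% in WT. Summed with them, mt-Co3 was higher by 1.12 and mt-Co1 by 1.34 (limma adjusted p = 7.40e-05 and 1.33e-05). Gm28438, a copy of mt-Nd3, had no read in KO and averaged 78.1 in WT, at least 271-fold lower in KO with 3 reads as the floor, and summed with it mt-Nd3 was no longer called (0.46, limma adjusted p = 0.06). With every family summed, 66 genes were called higher and 43 lower of 14492.

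**Figure D4:**
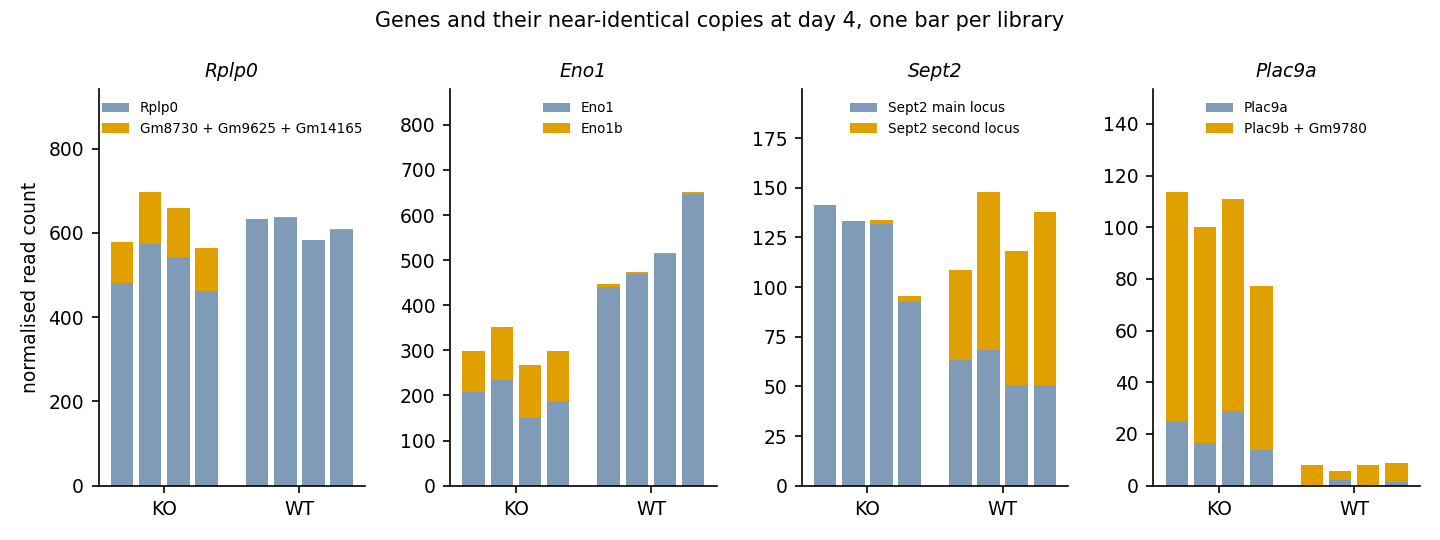
Stacked normalised read counts, 1 bar per library, KO left and WT right, for Rplp0, Eno1, Sept2 and Plac9a (blue) and their near-identical copies (orange) at day 4. The Rplp0 bars reach like heights in both groups while copies fill 16.8 to 18.2% of each KO bar, the Eno1 bars are lower in KO, and the Plac9a bars are higher in KO.

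Markers of other cell types were counted because a sorted sample 4 days after injury can hold them. In 13 marker lists 155 genes were listed, 89 were tested and none was called in either direction by limma or edgeR, with 18 at an unadjusted limma p under 0.05. DESeq2 called 3 higher (2 smooth muscle and pericyte, 1 myofibre) and 5 lower (2 macrophage, 3 dendritic cell), and rescaling called 4 lower (2 macrophage, 2 dendritic cell). The lists' summed levels overlapped between groups in 11 of the 13. Macrophage and monocyte markers were all tested (20 of 20), 4 had a positive difference, and the median was −0.26. Their sum was 1413 to 1579 in KO and 1637 to 2167 in WT, without overlap. The log2 difference of that sum was −0.31, between −0.37 and −0.23 with any 1 library left out, and −0.53 after rescaling. The mean of log2(value + 1) over the markers, which weighs each gene alike, did overlap, at 5.04 to 5.21 in KO and 5.19 to 5.57 in WT. Lyz2, the lysozyme of macrophages, had 602, 603, 555 and 682 in KO and 714, 632, 896 and 741 in WT (−0.28, limma adjusted p = 0.313). Dendritic cell markers also did not overlap, at 116 to 185 in KO and 197 to 426 in WT, with 6 of 10 tested, none positive, and a median of −0.62. The WT range rests in part on WT replicate 3, at 426. Flt3, Clec9a, Cd209a and Ccr7 were not in the table, so the sum rests on Zbtb46, Xcr1, Itgax, H2-Aa, H2-Ab1 and Cd74. Whether these reads came from dendritic cells was not tested. Whether RNA of other cell types has a part in the lower values of single genes such as Bst2, Lgals3 and Anxa1 was not tested.

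Fibro-adipogenic progenitor markers summed to 1577 to 4145 in KO and 2065 to 3050 in WT, with 16 of 17 tested and a median of 0.12. Col1a1, the main chain of type I collagen, averaged 118 ± 63.3 in KO and 75.1 ± 32.7 in WT (0.56, limma adjusted p = 0.561). Glial and Schwann cell markers stood at 79.5, 65.6, 389 and 119 in KO libraries and 66.0 to 88.2 in WT libraries. KO replicate 3 was the high library, with Mbp at 49.0 and the fibroblast gene Dcn at 555. Without it 71 genes were called higher and 49 lower. The remaining lists overlapped: neutrophil sums were 38.5 to 55.2 in KO and 49.6 to 67.5 in WT, endothelial sums 15.3 to 25.1 in KO and 11.03 to 21.2 in WT, smooth muscle and pericyte sums 369 to 529 in KO and 326 to 514 in WT, and mature myofibre sums 146 to 301 in KO and 208 to 401 in WT. Sums of B cell, T and NK cell, erythroid, tenocyte and adipocyte markers stayed at or below 45.5 in KO and 22.5 in WT, and of the T and NK markers only 1 of 12 was in the table.

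**Figure D5:**
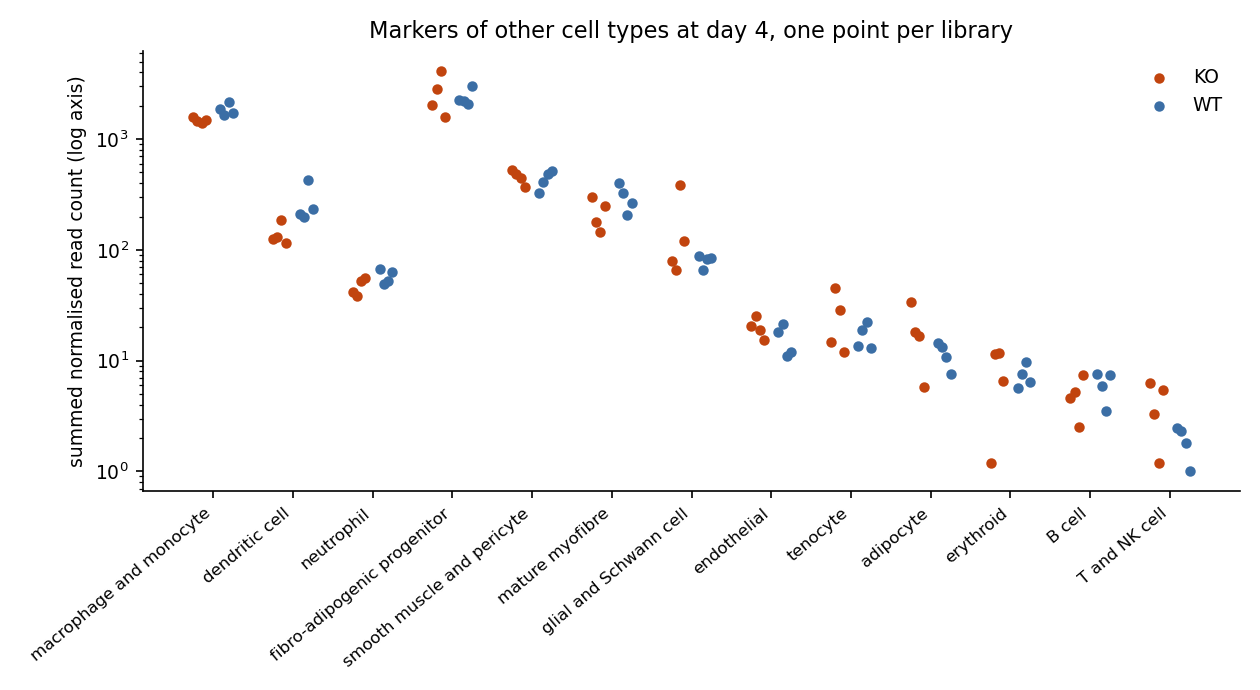
Summed normalised read count (log axis) of each marker list in the 4 KO (red) and 4 WT (blue) libraries at day 4. Macrophage and dendritic cell points are lower in KO without overlap, 1 KO library is high for glial and Schwann cell markers (389), and the other lists overlap.

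The genotype difference at day 4 was set beside that at the other times, in the same 14831 genes. At day 0, in uninjured muscle, 76 genes or 0.512% passed, 33 higher (0.223%) and 43 lower (0.29%), and at day 1 after injury 3873 or 26.1% passed, 2165 higher (14.6%) and 1708 lower (11.5%). Of the 92 genes higher at day 4, 7 were also higher at day 0 (7.61% of them, 21.2% of the day 0 genes) and 47 at day 1 (51.1% and 2.17%), while 3 and 7 were lower at those days. Eno1b, Flrt1, Gm10036, Gm12191 and Ndufs5-ps were higher on all 3 days. Of the 60 genes lower at day 4, Ptgds alone was also lower at day 0, and 7 were lower and 11 higher at day 1.

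Direct tests of the change in the genotype difference, fitted over all 24 libraries, addressed where day 4 departs from the other times. For day 4 less day 0, 670 genes or 4.52% passed, 343 upward (2.31%) and 327 downward (2.2%), but 235 when the 16 libraries of those days were fitted alone, and on simulated data this contrast called unchanged genes more often than its threshold allows. For day 4 less day 1, 686 or 4.63% passed, 123 upward (0.829%) and 563 downward (3.8%). None of the 13 mitochondrially encoded genes was called at day 0 (median 0.00), 11 were higher at day 1 (median 1.13) and all 13 at day 4 (1.08). At day 1, however, these genes took 3.27 to 5.19% of reads in KO and 1.90 to 3.05% in WT, far below their share at day 4. Asns differed by 0.33 at day 0 and 0.00 at day 1, against −3.09 at day 4, and the day 4 difference departed from both (limma interaction adjusted p = 0.00089 and 0.00162). Mymk differed by 3.29 at day 0, which was not called (SE 0.99, limma adjusted p = 0.221), by −0.04 at day 1 and by −2.95 at day 4. It departed downward from its difference at day 0 (−6.24, limma interaction adjusted p = 0.0133), and its change from day 1 was not called (−2.92, 0.359).

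Some genes with large differences at an earlier time had smaller ones at day 4. Pthlh, parathyroid hormone-related protein, differed by 8.43 at day 0 and 8.03 at day 1, but at day 4 averaged 109 ± 25.6 in KO and 84.0 ± 20.4 in WT (0.37, limma adjusted p = 0.485). Gdf15, a stress-induced secreted factor, differed by 1.70, 4.65 and 0.22 on days 0, 1 and 4. Hmox1 differed by −2.11 at day 0, 5.09 at day 1 and 0.74 at day 4. Cdkn1a differed by 0.89, 0.84 and −0.29. Pax7 differed by 0.21, −1.39 and 0.23. Plac9b went the other way, at 1.48, −0.75 and 3.36 on days 0, 1 and 4. Eno1b differed by 3.40, 6.57 and 4.36 on those days. Its change from day 0 was not called (limma interaction adjusted p = 0.0956), and its change from day 1 was downward (−2.21, 0.000146). The day 4 libraries of both groups enter each of these interaction tests, so the 2 tests are not independent of each other or of the day 4 comparison.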

How the data were processed

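The authors deposited 1 table of normalised read counts for 24 libraries (SMART-Seq v4), a linear signal per gene; the submitters' processing notes name FastQC, STAR, RSEM, limma and mm39, without versions. Every value was a whole count plus 0.5 over a scaled library size (100% whole within 0.02), so reads were recovered. The members and the gene lists were chosen with earlier results of these data known. KO and WT at day 4 were compared with limma 3.58.1 (R 4.3.3) with a mean-variance trend on log2(value + 1) over 8 libraries, two-sided, with Benjamini-Hochberg adjustment over the 14831 genes that reached 1 in 4 or more of them. The pseudocount understates changes of low genes. Changes between days came from the same test with 6 group means over 24 libraries. Alternatives used edgeR 4.0.16 and DESeq2 1.42.0 on recovered reads, other scalings, filters and pseudocounts, and omission of each library. Copies were found with minimap2 2.31-r1302 in GENCODE transcripts; summing them was chosen after seeing the data. Genes named were up to 15 per direction by log2 difference among called, non-overlapping genes with a mean of at least 8, up to 3 called genes per list by adjusted p, the 13 mitochondrially encoded genes and genes fixed by name. The tests were checked on simulated data with known changes. There the main day 4 test missed most genes changed 1.5-fold or 2-fold, so a gene not called need not be unchanged. Unchanged genes made a larger part of its calls than the threshold allows. That part was larger again with DESeq2 and with the spread of all 24 libraries.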

Additional observations from a re-analysis of the deposited data

Results flagged for a closer look

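Among 170 groups of 4 day 4 libraries examined, 14 had 1 library far from the others, where chance gives about 5% of groups. In KO the high libraries were replicate 1 for mt-Co1 (108855 normalised reads), mt-Co2 (63859) and mt-Nd5 (23094), replicate 2 for Hspb1 (28.7), replicate 4 for Erfe (3.67) and replicate 3 for the sum of glial and Schwann cell markers (389). The low KO libraries were replicate 3 for St6gal1 (1.13) and replicate 4 for Hmox1 (259). In WT the high libraries were replicate 4 for Art3 (9.80), Cyc1 (135) and Col1a1 (124) and replicate 3 for the sum of dendritic cell markers (426), and the low ones were replicate 2 for Plac9b (2.40) and Cdkn1a (306).

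For 39 named genes the KO minus WT log2 difference at day 4 differed from that at day 0 by limma's interaction test over 24 libraries (adjusted p under 0.05), a contrast that called unchanged genes more often than its threshold allows on simulated data. Upward changes were found in all complexes with mitochondrially encoded subunits, with mt-Co1 at 1.21, mt-Co2 at 1.28, mt-Atp8 at 1.15, mt-Atp6 at 1.12, mt-Cytb at 1.08, mt-Nd1 at 1.24, mt-Nd2 at 1.07, mt-Nd4 at 0.99, mt-Nd5 at 1.43 and mt-Nd6 at 1.52. They were also found for Plac9a (2.80), Plac9b (1.88), Mid1 (3.68), Gpx3 (1.31), Gclc (2.20), Hmox1 (2.86), Hspa8 (0.68) and Myf5 (0.98). Downward changes were found for the ATF4 targets Asns (−3.42), Ddit3 (−1.41) and Gdf15 (−1.48), for Mymk (−6.24) and Myh3 (−2.47) of the fusing and newly formed fibre, and for Calcr (−2.01). The respiratory and citrate cycle genes Atp5b (−0.55), Uqcrc1 (−1.21), Suclg1 (−1.21) and Idh3g (−1.19) also moved down. The others were the second Sept2 locus (−5.72), Slc15a2 (−4.17), Trip13 (−2.32), Erfe (−1.99), Tbc1d19 (−3.86), Krt18 (−2.71), Sema3e (−2.46), St6gal1 (−2.005), Cdkn1a (−1.18), Pthlh (−8.05) and Col1a1 (−2.27).

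For 26 named genes it differed from that at day 1 by the same test. Upward changes were found for Plac9a (3.63), Plac9b (4.11), Tmem254b (4.56), Tmem254c (4.02), Duxbl3 (4.48), Mid1 (2.47), Glcci1 (1.72), Id2 (1.11) and Pax7 (1.62). Downward changes were found for the stress genes Asns (−3.09), Ddit3 (−1.74), Trib3 (−3.04), Gdf15 (−4.43), Hmox1 (−4.35), Hspb1 (−2.86), Hspa8 (−0.71) and Cdkn1a (−1.13). They were also found for Atp5b (−0.98), Cyc1 (−0.80), Eno1 (−1.24), Eno1b (−2.21), the second Sept2 locus (−5.12), Slc15a2 (−3.85), Erfe (−2.71), Sema3e (−2.12) and Pthlh (−7.66). Each pair of tests shares the day 4 libraries.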

How the results depend on the processing

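Genes called higher at day 4 numbered 92, against 53 without the mean-variance trend, 216 with DESeq2 and 55 to 92 with 1 library left out. Genes called lower numbered 60, against 32 with no pseudocount, 245 rescaled without mitochondrial genes, 33 without the trend, 35 with edgeR, 177 with DESeq2, 94 with the spread of all 24 libraries and 19 to 70 with 1 library left out. Same-numbered KO and WT libraries did not deviate together at day 4 (r of −0.002 to 0.010, no KO library correlating best with its own number), and a fit with the replicate number as a block called 38 lower. For day 4 less day 0, 670 genes became 1048 rescaled, 218 with library weights, 1246 with DESeq2, 235 with 16 libraries and 455 to 659 with 1 left out. For day 4 less day 1, 686 became 1665 with weights, 1493 with 16 libraries and 529 to 668 with 1 left out. The mitochondrial share difference of 11.2 points was 14.4 with the 1% most abundant other genes left out and 10.6 to 11.5 with 1 library left out. The macrophage marker sum was −0.53 rescaled and −0.37 to −0.23 with 1 library left out, against −0.31.

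Directions turned for Eno1b with copies summed (−0.76), for Lamp2 rescaled (−0.16) and with 1 library left out (−0.039 to 0.22, below 0 without KO replicate 2 or 3), and for Hspa8 rescaled (−0.13). Under quantile normalisation they turned for mt-Nd1 (−0.056), mt-Nd4 (−0.054) and mt-Cytb (−0.016), for the day 4 less day 0 change of mt-Co1 (−0.082), mt-Atp8 (−0.012), mt-Atp6 (−0.17), mt-Nd4 (−0.41), mt-Co2 (−0.0096) and mt-Cytb (−0.17), and for the day 4 less day 1 change of Hspa8 (0.21). The cause of these changes was not tested, beyond the fewer libraries in a fit. Of 58 named genes called at day 4, 11 kept the call in all 21 alternatives other than summing copies, and Tmem254b in the 20 that gave it a value. With copies summed Eno1b turned and the second Sept2 locus was not called (−0.03). With edgeR 38 of the 58 kept the call, and Cyc1, Idh3g, Eno3, Trib3, Chrnd and Prc1 were among the 20 that lost it. Without the mean-variance trend 31 of the 58 kept it. Depth limits low genes: 3 reads equal 0.227 to 0.288 in KO and 0.201 to 0.251 in WT, and such floors cover counting error only.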
